A study of Mus musculus with 6 samples.

Results

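Messenger RNA of mouse liver was sequenced from 6 animals labelled by genotype, and 57 genes of cytochrome P450 families 1 to 3, the families known for oxidising drugs and other foreign compounds, are described here out of 34745 genes in the table. Members were taken by gene symbol: Cyp, a family number of 1, 2 or 3, a subfamily letter and a gene number. They fall into 15 subfamilies. The 3 libraries labelled Sox9f/f (replicates 5, 6 and 8) carry a loxP-flanked Sox9 gene, and the 3 labelled Sox9HKO (replicates 9, 10 and 12) are labelled as its knockout. The driver of the recombinase, age and sex were not given in the sources used here. All 6 animals had received an MCD diet, in this field a diet short of methionine and choline that produces fatty, inflamed liver, for 6 weeks. No animal on another diet was analysed here, so every value below belongs to a liver under that diet.

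P450 enzymes of these families sit in the membrane of the endoplasmic reticulum and hold a heme whose iron is bound by a cysteine of the protein. Electrons reach that heme from NADPH through the reductase Por, with cytochrome b5 as a further donor. In liver, several subfamilies are switched on by receptors that sense foreign compounds: AHR for Cyp1a, CAR for Cyp2b and PXR for Cyp3a. Many members are made mostly by the hepatocytes around the central vein, and in mice several of the Cyp2 and Cyp3 genes are expressed at different levels in males and females under the pattern of growth hormone release.

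The stretch around the heme-binding cysteine shows what the family shares and how close its members are. A script translated the coding sequence of each member (GENCODE M21, longest coding transcript) and searched for phenylalanine, any 2 residues, glycine, any 3 residues, cysteine, any 1 residue and glycine. The motif was found in 54 of 57 members. It was not found in the longest coding transcript of Cyp2b10, Cyp2s1 and Cyp3a59, and no other transcript was searched. The coding bases of that motif follow for members that carry the results below, 5′ to 3′, with the cysteine codon in capitals.
Cyp1a2: ttcggcttgggaaagcgccggTGCattggg
Cyp1b1: ttctcagtgggcaaacggaggTGCatcggt
Cyp2a4: ttttccattggaaaacggtatTGTttcgga
Cyp2a5: ttttccattggaaaacggtatTGTttcgga
Cyp2b9: ttctccacaggaaagcgcattTGTcttggt
Cyp2b13: ttctccacaggaaagcgcattTGTcttggt
Cyp2c40: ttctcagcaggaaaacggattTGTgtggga
Cyp2c50: ttctcaacaggaaaacggataTGTgcagga
Cyp2d26: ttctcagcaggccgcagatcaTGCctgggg
Cyp2e1: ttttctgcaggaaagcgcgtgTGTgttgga
Cyp3a11: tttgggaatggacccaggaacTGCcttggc
Cyp3a44: tttggaattggacccaggaacTGCattggc
The Cyp2a4 and Cyp2a5 stretches are the same, and so are those of Cyp2b9 and Cyp2b13, so a read confined to it cannot be placed on a single gene of either pair. Over whole coding sequences, Cyp2a4 and Cyp2a5 differed at 23 of 1482 bases (98.45% identity), and Cyp2b9 and Cyp2b13 at 107 of 1473 (92.74%). In the Cyp2c subfamily, Cyp2c40 was 98.1% identical to Cyp2c68 and 97.9% to Cyp2c69, and 61.1% of all 75-base stretches of Cyp2c40 occurred exactly in another member. Cyp3a25 and Cyp3a59 were 97.48% identical, and Cyp2a12 and Cyp2a22 96.95%. The placement of such reads by the authors' counting, not given in the sources used here, leaves the values of these genes uncertain. In addition, 14 members overlap another annotated gene, among them Cyp2a4 and Cyp2u1 an antisense gene and Cyp2c29 a pseudogene, and no label says whether counting used strand.

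Depth was 22826962 to 27286864 counts per library. Levels are CPM, counts divided by library size after trimmed-mean (TMM) scaling, and wherever 6 values follow each other they are in the order of the f/f-labelled libraries 5, 6 and 8 and then the HKO-labelled libraries 9, 10 and 12. The targeted gene itself goes against a plain reading of the label: Sox9 stood at 5.80, 5.31 and 5.80 CPM against 15.3, 18.1 and 22.7 CPM. Bulk RNA does not show which cells this Sox9 RNA came from, so these values cannot check the label. Each direction below is between libraries as labelled. Hepatocyte markers other than P450s were present in every library, with a summed level of 131690.0, 132998 and 127821 CPM against 103484, 110708 and 107881 CPM that did not overlap between the groups, and 12 of the 14 had a negative log2 fold change. The 10 tested markers of bile duct and ductular cells, the 10 of stellate cells and the 10 of macrophages all had positive ones, as had 6 of lymphocytes and 6 of neutrophils, against 2 of 7 of endothelial cells. Bulk RNA cannot tell fewer hepatocytes from less P450 RNA in each hepatocyte, and the part of this shift in the results below was not tested. One HKO-labelled library, replicate 12, stood apart from the other 5 in many members, and results that rest on it are given with and without it.

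Members covered the whole range of abundance. On the FPKM scale, which divides by gene length, 12 members had a mean of 100 or more over the 6 libraries, 15 lay between 10 and 100, 11 between 1 and 10, and 12 below 1 but above 0. The other 7 (Cyp2b19, Cyp2c66, Cyp2d34, Cyp2j7, Cyp2j12, Cyp2t4 and Cyp2w1) had no count in any library. Cyp2e1 led with a mean FPKM of 4513, ranging from 3604 to 5424. Next came Cyp2d26 at 849 FPKM (757 to 918) and Cyp2a4 at 839 FPKM (578 to 1202), whose ranges overlapped, then Cyp3a11 at 596 FPKM and Cyp2a5 at 483 FPKM. Cyp2e1 alone took between 0.658% and 0.991% of all counts of a library. All members together took 2.25%, 2.26% and 1.997% of counts in the f/f-labelled libraries and 2.19%, 2.17% and 1.67% in the HKO-labelled ones, and the last of these is replicate 12.

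The comparison the design implies, Sox9HKO against Sox9f/f, was made by edgeR's quasi-likelihood test over 14137 genes. A filter on low counts left 44 members in the test and left out 13, the 7 without a count and 6 with at most 10 counts in any library. No member passed a Benjamini-Hochberg adjusted p under 0.05 in edgeR, as was so for every gene tested (0% called in either direction). By unadjusted p at the same threshold, 12 members were lower in the HKO-labelled libraries (10.1% of all genes tested) and 1 was higher (9.74%). By DESeq2, which also adjusts over all genes, calls were 4 members lower (1.97% of all genes) and 1 higher (2.31%). They were Cyp2a12, Cyp2a22, Cyp2b13 and Cyp2c40 on the lower side and Cyp1b1 on the higher. By limma voom with sample weights no member was called. In 13 members every HKO-labelled library lay below every f/f-labelled one (14.3% of all genes), and in 1 every one lay above (12.2%).

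The direction leaned to lower values: 35 of the 44 tested members had a negative log2 fold change, against 49.5% of all genes, and the median was -0.28 against 0.00 over all genes. Without replicate 12, 27 of 43 were negative and the median was -0.18. The median of the members lay 0.28 below that of all genes with TMM and also 0.28 below with library-size scaling, which moves all genes alike (median of all genes 0.11), and 0.18 below without replicate 12. With library-size scaling 27 of 44 members were negative, where 37.5% of all genes were. Under that scaling the groups did not overlap in 6 members lower (6.97% of all genes) and 1 higher (19.4%). The deposited FPKM values also divide by library size, so overlap of a single gene is the same there by construction and adds no further check. The 6 were Cyp2a12, Cyp2a22, Cyp2b13, Cyp2c40, Cyp2d10 and Cyp2d26, and the 1 was Cyp1b1.

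By subfamily, the groups separated in Cyp2d, whose 8 members summed to 3307, 3222 and 3127 CPM against 2625, 2493 and 2643 CPM (log2 ratio -0.32, and -0.33 without replicate 12). All HKO-labelled libraries lay below all f/f-labelled ones there, and replicate 12 was the highest of its group. The Cyp2c total was also below in all 3, at 1484, 1840.2 and 1548 CPM against 1405, 1362 and 733 CPM, but the distance was smaller without replicate 12: the log2 ratio was -0.48 with it and -0.23 without. The total of Cyp2u, a single gene, did not overlap either. With library-size scaling and in summed FPKM the Cyp2c and Cyp2u totals overlapped, and the Cyp2d and Cyp1b totals did not. For Cyp2u and Cyp1b, as single genes, the FPKM result follows from that with library-size scaling. Totals of Cyp1a, Cyp2a, Cyp2b, Cyp2e, Cyp2g, Cyp2j, Cyp2r, Cyp2s and Cyp3a overlapped between the groups, and Cyp1b, again a single gene, was the only total above the f/f-labelled range in every HKO-labelled library. All members together summed to 23474, 23779 and 20463 CPM against 20568, 21162 and 16296 CPM, which overlapped.

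**Figure D1:**
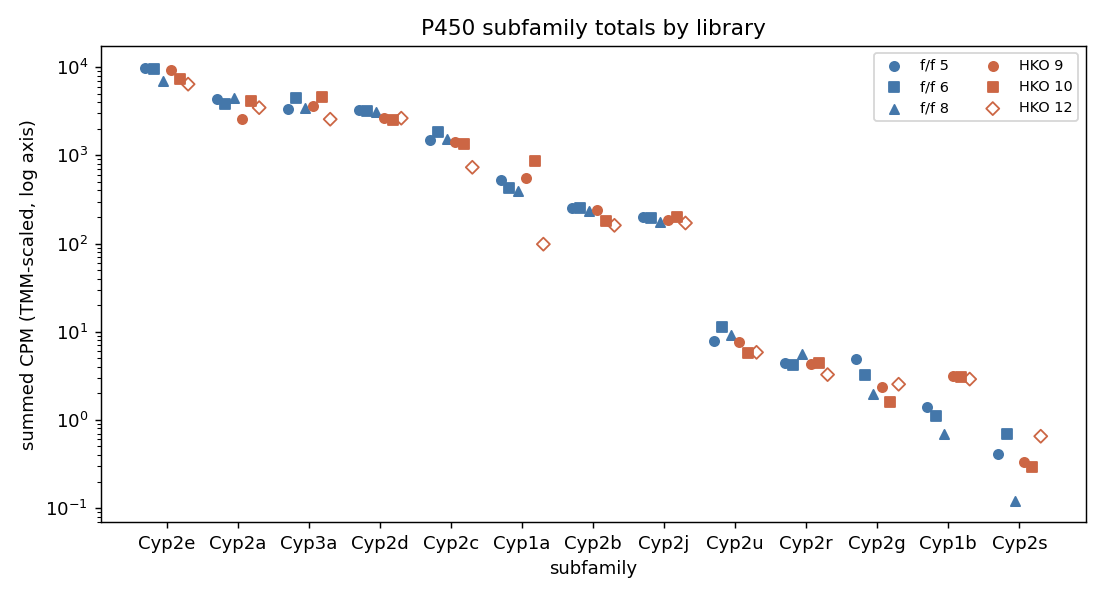
Summed CPM of each P450 subfamily with counts (TMM-scaled, log axis), 1 point per library, blue for Sox9f/f and orange for Sox9HKO, with replicate 12 as an open diamond. On this scale Cyp2d and Cyp2c totals are lower and the Cyp1b value higher in all 3 HKO-labelled libraries, and the Cyp1a total of replicate 12 lies far below the other 5.

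**Figure D2:**
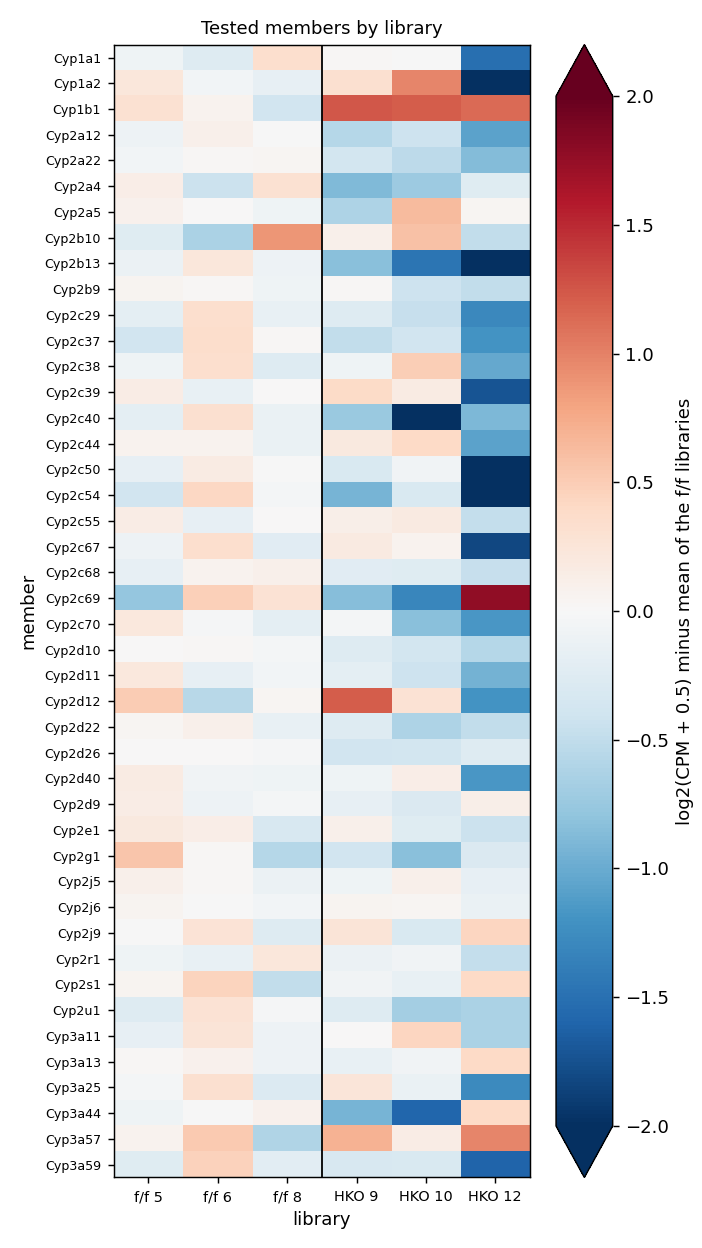
Colour gives log2(CPM + 0.5) of each tested member in each library minus the mean of the 3 Sox9f/f libraries, with the scale ending at -2 and 2. The column of replicate 12 is the darkest blue in most rows, while Cyp2c69, Cyp3a44 and Cyp3a57 are red there, and Cyp1b1 is red in all 3 HKO columns.

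Among the Cyp1 genes, Cyp1a2, the hepatic AHR target that oxidises caffeine and aromatic amines, stood at 516, 425 and 392 CPM against 552, 867 and 97.1 CPM. Replicates 9 and 10 were above all f/f-labelled libraries and replicate 12 was at 0.248 of the lowest other library. The log2 fold change was 0.19 ± 0.61 (SE) with all libraries and 0.67 ± 0.20 without replicate 12. Cyp1a1, the AHR target best known for oxidising polycyclic hydrocarbons, stood at 4.52, 3.96 and 6.25 CPM against 4.92, 4.79 and 1.38 CPM, again lowest in replicate 12, with -0.41 ± 0.44 in all libraries and -0.02 ± 0.25 without it.

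Cyp1b1 (chr17:79706953-79715041, minus strand), which is known for expression outside hepatocytes and for oxidising estrogens, had 31, 29 and 17 counts against 84, 83 and 80 counts. That is 1.41, 1.12 and 0.690 CPM against 3.13, 3.06 and 2.90 CPM, so the groups did not overlap and all 3 HKO-labelled libraries lay close together. Its log2 fold change of 1.499 ± 0.31 had an adjusted p of 0.139 in edgeR and 0.0033 in DESeq2, with 0.00331 to 0.353 over all alternatives, and it was 1.52 ± 0.35 without replicate 12. Summed stellate cell markers lay between 389 and 499 CPM in f/f-labelled libraries and between 599 and 775 CPM in HKO-labelled ones, none of the 10 at 0, and their part in the Cyp1b1 value was not tested.

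The 250 bases before the start of each Cyp1 gene are shown because AHR with its partner ARNT binds a core of GCGTG. Sequences are from RefSeq (GRCm38.p6), 5′ to 3′ on the gene's strand, with GCGTG on either strand (read as CACGC on the other) and TATAAA in capitals.
Cyp1a1, chr9:57697363-57697612, plus strand: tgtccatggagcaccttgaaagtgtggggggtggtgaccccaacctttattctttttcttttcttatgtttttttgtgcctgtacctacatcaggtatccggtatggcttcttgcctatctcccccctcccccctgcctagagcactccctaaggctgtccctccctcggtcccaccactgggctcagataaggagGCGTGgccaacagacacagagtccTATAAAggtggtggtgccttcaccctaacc
Cyp1a2, chr9:57683656-57683905, minus strand: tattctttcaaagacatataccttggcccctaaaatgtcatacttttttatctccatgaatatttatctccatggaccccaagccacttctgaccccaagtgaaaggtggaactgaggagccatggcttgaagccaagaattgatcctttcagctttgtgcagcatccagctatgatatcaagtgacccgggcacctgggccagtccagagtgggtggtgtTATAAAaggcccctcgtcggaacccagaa
Cyp1b1, chr17:79715062-79715311, minus strand: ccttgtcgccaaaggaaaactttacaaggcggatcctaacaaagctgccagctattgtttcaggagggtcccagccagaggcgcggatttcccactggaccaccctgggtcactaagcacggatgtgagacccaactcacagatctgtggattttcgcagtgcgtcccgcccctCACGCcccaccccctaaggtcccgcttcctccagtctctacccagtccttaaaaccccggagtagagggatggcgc
GCGTG began 54 bases before the start of Cyp1a1 and 76 before that of Cyp1b1, and these letters are not in the Cyp1a2 window. TATAAA lay 30 and 29 bases before the starts of Cyp1a1 and Cyp1a2 and is not in the Cyp1b1 window on either strand. In windows of 250 bases before to 50 after the start, GCGTG occurred in 32.4% of all 32851 promoters and in 10 of 52 windows of members (19.2%), and TATAAA in 13.6% of all and 26 of 52 of the members' windows. AGGTCA, a core that nuclear receptors bind, occurred in 16.3% of all and 34.6% of member windows. RefSeq windows matched 49 members, 3 of them with 2 windows. GCGTG and TATAAA do not overlap in the windows shown, and both strands were read for every motif.

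In the Cyp2a subfamily, the pair Cyp2a12 and Cyp2a22 was lower in every HKO-labelled library, while Cyp2a4 and Cyp2a5 were not both so. Cyp2a12, which in mice hydroxylates bile acids and steroids, stood at 749, 863 and 792 CPM against 541, 602 and 381 CPM. Its log2 fold change was -0.66 ± 0.18 (adjusted p 0.151 in edgeR, 0.03 in DESeq2 and 0.0299 to 0.353 over all alternatives), and -0.49 ± 0.11 without replicate 12. Cyp2a22 stood at 208, 221 and 222 CPM against 168, 151 and 119 CPM, again without overlap, at -0.57 ± 0.14 (adjusted p 0.146 in edgeR, 0.028 in DESeq2 and 0.0279 to 0.353 over all alternatives). The f/f-labelled values of Cyp2a22 lay within a narrow range and replicate 12 was the lowest of all 6.

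Cyp2a5, the mouse coumarin hydroxylase, stood at 1547, 1475 and 1376 CPM against 951, 2280.4 and 1506 CPM, with replicate 9 the lowest and replicate 10 the highest of all libraries and a log2 fold change of 0.11 ± 0.28. Cyp2a4, a steroid hydroxylase chosen for the text once its values were known, stood at 1913, 1290.0 and 2140.5 CPM against 943, 1054 and 1474 CPM. Its replicates 9 and 10 lay below and replicate 12 within the f/f-labelled range, at -0.62 ± 0.23 with all libraries. For every 100 counts of Cyp2a5, Cyp2a4 had 124, 87.5 and 156 counts against 99.2, 46.2 and 97.9 counts, a ratio that no scaling can change, and the groups overlapped. The 250 bases before the start of the pair are almost the same, which is why both are shown (RefSeq, GRCm38.p6), with bases that differ in capitals.
Cyp2a4, chr7:26306942-26307191, plus strand: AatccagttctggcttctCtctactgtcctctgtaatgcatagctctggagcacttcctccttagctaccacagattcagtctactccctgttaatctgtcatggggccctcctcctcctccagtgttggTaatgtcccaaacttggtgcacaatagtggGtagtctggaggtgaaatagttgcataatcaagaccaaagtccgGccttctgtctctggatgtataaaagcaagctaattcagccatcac
Cyp2a5, chr7:26835089-26835338, plus strand: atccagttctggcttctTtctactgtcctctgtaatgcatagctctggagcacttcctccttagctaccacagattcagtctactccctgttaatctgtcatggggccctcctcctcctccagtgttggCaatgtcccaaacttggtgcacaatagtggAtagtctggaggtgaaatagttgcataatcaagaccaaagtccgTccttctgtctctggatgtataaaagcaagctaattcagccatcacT
The windows differ at 4 aligned bases, and the capital at the far end of each has no partner because the annotated starts are 1 base apart.

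In the Cyp2b subfamily, Cyp2b13 was lower in every HKO-labelled library and its neighbour Cyp2b9 was not. Both are genes of female mouse liver in the main, and Cyp2b10 is the standard target of CAR. Cyp2b13 (chr7:26061497-26096197, plus strand) stood at 19.4, 24.7 and 19.8 CPM against 11.6, 7.36 and 2.87 CPM, without overlap and lowest in replicate 12. Its log2 fold change was -1.55 ± 0.42 (adjusted p 0.151 in edgeR, 0.0086 in DESeq2 and 0.00857 to 0.362 over all alternatives) and -1.17 ± 0.23 without replicate 12. Cyp2b9 stood at 229, 224 and 209 CPM against 225, 166 and 156 CPM, where replicate 9 lay within the f/f-labelled range, at -0.27 ± 0.15. For every 100 counts of Cyp2b9, Cyp2b13 had 8.46, 11.0 and 9.46 counts against 5.17, 4.43 and 1.84 counts, so the ratio of the neighbours was itself lower in all 3 HKO-labelled libraries. Cyp2b10 had low values that overlapped, 2.28, 1.62 and 5.56 CPM against 3.02, 4.46 and 1.85 CPM.
Cyp2b9, chr7:26173159-26173408, plus strand: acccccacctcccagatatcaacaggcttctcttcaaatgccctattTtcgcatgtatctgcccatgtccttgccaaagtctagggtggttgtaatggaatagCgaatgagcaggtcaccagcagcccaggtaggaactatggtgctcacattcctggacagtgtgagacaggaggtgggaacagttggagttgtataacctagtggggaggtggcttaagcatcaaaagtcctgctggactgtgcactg
Cyp2b13, chr7:26061245-26061494, plus strand: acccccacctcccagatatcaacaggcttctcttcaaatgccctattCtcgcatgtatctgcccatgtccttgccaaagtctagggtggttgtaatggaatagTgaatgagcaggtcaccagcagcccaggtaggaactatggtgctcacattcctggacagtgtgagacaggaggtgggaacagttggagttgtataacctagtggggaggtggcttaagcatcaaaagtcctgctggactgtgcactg
These are the 250 bases before the start of each, shown because the genes differed in level and in their values across the groups while this stretch differs at only 2 bases, in capitals (RefSeq, GRCm38.p6). Cyp2b23 had counts in replicate 12 alone and Cyp2b19 in no library.

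The Cyp2c subfamily, 15 genes on chromosome 19 many of which oxidise arachidonic acid as well as drugs, had 13 tested members. Log2 fold changes were negative in 12 of them (49.5% of all genes). The groups did not overlap in 4, all lower (14.3% of all genes), and replicate 12 was the lowest library in 11 (21.8%). Cyp2c40, an arachidonic acid hydroxylase, stood at 17.8, 25.7 and 18.7 CPM against 12.05, 4.35 and 10.7 CPM and was lowest in replicate 10. Its log2 fold change was -1.20 ± 0.35 (adjusted p 0.156 in edgeR, 0.026 in DESeq2 and 0.0257 to 0.362 over all alternatives), and it shares more sequence with other members than any other gene here. For every 100 counts of Cyp2c68 it had 5.67, 6.98 and 4.97 counts against 3.998, 1.46 and 4.20 counts, without overlap.

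Cyp2c29, a phenobarbital-inducible gene, stood at 311, 449.6 and 318 CPM against 295, 256 and 144 CPM, at -0.63 ± 0.27. Cyp2c68 stood at 313, 369 and 376 CPM against 301, 298 and 255 CPM, at -0.31 ± 0.13. Both were lower in every HKO-labelled library on the TMM scale, as was Cyp2c37, an epoxygenase, at 156, 258 and 207 CPM against 144, 154 and 88.6 CPM. All 3 overlapped with library-size scaling, and hence in FPKM. Cyp2c50, by contrast, turned on 1 library: it stood at 204, 254 and 227 CPM against 184, 216 and 34.2 CPM, with replicate 12 at 0.186 of the lowest other library. Its log2 fold change was -0.66 ± 0.54 with that library and -0.20 ± 0.13 without. Cyp2c70, which makes muricholic acids in mice, stood at 225, 190.0 and 170.1 CPM against 189, 109 and 86.2 CPM, which overlapped.

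The subfamily also held the member with the opposite pattern. Cyp2c69, a gene of female mouse liver, had 5, 32 and 25 counts against 5, 0 and 103 counts. Replicate 12 was the highest library and replicate 10 had none, so the log2 fold change was 0.65 ± 1.28 with all libraries and -3.11 ± 1.09 without replicate 12. Cyp2c65, left out of the test, had counts in replicate 12 alone, 0, 0 and 0 counts against 0, 0 and 6 counts.

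In the Cyp2d subfamily, 8 genes on chromosome 15, 6 of 7 tested members had a negative log2 fold change (49.5% of all genes). On the TMM scale the groups did not overlap in 4, all lower (14.3% of all genes). Of these 4, only Cyp2d10 and Cyp2d26 also did not overlap with library-size scaling. Cyp2d26, the most abundant, stood at 1573, 1572 and 1543 CPM against 1202, 1213 and 1308 CPM. The f/f-labelled libraries lay within a narrow range and all HKO-labelled ones below it, at -0.33 ± 0.11 (adjusted p 0.180 in edgeR). Cyp2d10 stood at 758, 766 and 732 CPM against 632, 584 and 506 CPM, at -0.39 ± 0.12, and Cyp2d22, whose groups overlapped with library-size scaling, at 324, 338 and 283 CPM against 263, 204 and 224 CPM, at -0.45 ± 0.14. These 3 genes moved little when replicate 12 was left out, at -0.38 ± 0.10, -0.31 ± 0.10 and -0.44 ± 0.14.

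Cyp2d9, a steroid hydroxylase of male mouse liver, stood at 595, 499 and 521 CPM against 479.6, 439 and 584 CPM. Here replicate 12 was the second highest of all libraries, and the groups overlapped at -0.10 ± 0.14. Cyp2d12 was at the edge of detection with 35, 13 and 25 counts against 78, 35 and 4 counts, and replicate 12 had the fewest. Summed hepatocyte markers, given above, were also lower in every HKO-labelled library, and their part in the Cyp2d values was not tested.

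Cyp2e1 (chr7:140763739-140774975, plus strand), which oxidises ethanol and paracetamol and is made by hepatocytes near the central vein, stood at 9905, 9550.3 and 6949 CPM against 9306, 7390.3 and 6423 CPM. The spread within each group was wider than the distance between them (8801 ± 1614 CPM against 7707 ± 1467 CPM, SD, n = 3), and the log2 fold change was -0.19 ± 0.20. Cyp2j5, an arachidonic acid epoxygenase of liver and kidney, stood at 147, 140.1 and 126 CPM against 130.2, 147 and 122.997 CPM with -0.05 ± 0.12, and Cyp2j6 and Cyp2j9 also overlapped. The estimate for Cyp2j5 was close to 0 and its sign turned with the scaling. Cyp2r1, a vitamin D hydroxylase, stood at 4.43, 4.23 and 5.60 CPM against 4.33, 4.46 and 3.27 CPM and overlapped. Cyp2u1, a fatty acid hydroxylase that overlaps an antisense gene, stood at 7.76, 11.5 and 9.13 CPM against 7.68, 5.67 and 5.84 CPM without overlap, though with overlap under library-size scaling, at -0.56 ± 0.21. Cyp2g1, best known from olfactory tissue, stood at 4.93, 3.27 and 1.99 CPM against 2.35, 1.58 and 2.54 CPM, and Cyp2s1 had 9, 18 and 3 counts against 9, 8 and 18 counts. Both overlapped.

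In the Cyp3a subfamily, 7 genes on chromosome 5, the main PXR target Cyp3a11 stood at 2726, 3661 and 2851 CPM against 3059, 4116 and 1972 CPM. The groups overlapped, replicate 10 was the highest and replicate 12 the lowest, and the log2 fold change was -0.01 ± 0.26 with and 0.21 ± 0.18 without replicate 12. Cyp3a25 stood at 250.2, 321 and 212 CPM against 305, 234 and 107 CPM and overlapped. Its near copy Cyp3a59 was lower in every HKO-labelled library, though not with library-size scaling, at 47.4, 77.8 and 48.8 CPM against 45.1, 45.6 and 18.3 CPM and -0.68 ± 0.35. Counts of Cyp3a59 for every 100 counts of Cyp3a25 were 19.0, 24.3 and 23.0 counts against 14.8, 19.5 and 17.2 counts, which overlapped.

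Cyp3a44, a gene of female mouse liver, differed within the HKO label. It stood at 264, 278 and 296 CPM against 146, 93.1 and 368 CPM, so that replicates 9 and 10 were below and replicate 12 above every f/f-labelled library. The log2 fold change was -0.47 ± 0.43 with all libraries and -1.23 ± 0.19 without replicate 12. Cyp3a13 stood at 81.4, 85.0 and 74.5 CPM against 72.2, 76.1 and 106 CPM, again with replicate 12 the highest, at 0.08 ± 0.16. Cyp3a57 was low and overlapped, at 0.821, 1.31 and 0.325 CPM against 1.53, 0.884 and 1.96 CPM. Cyp3a16, known from fetal and female mouse liver and left out by the filter, had 0, 0 and 0 counts against 0, 0 and 10 counts.

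**Figure D3:**
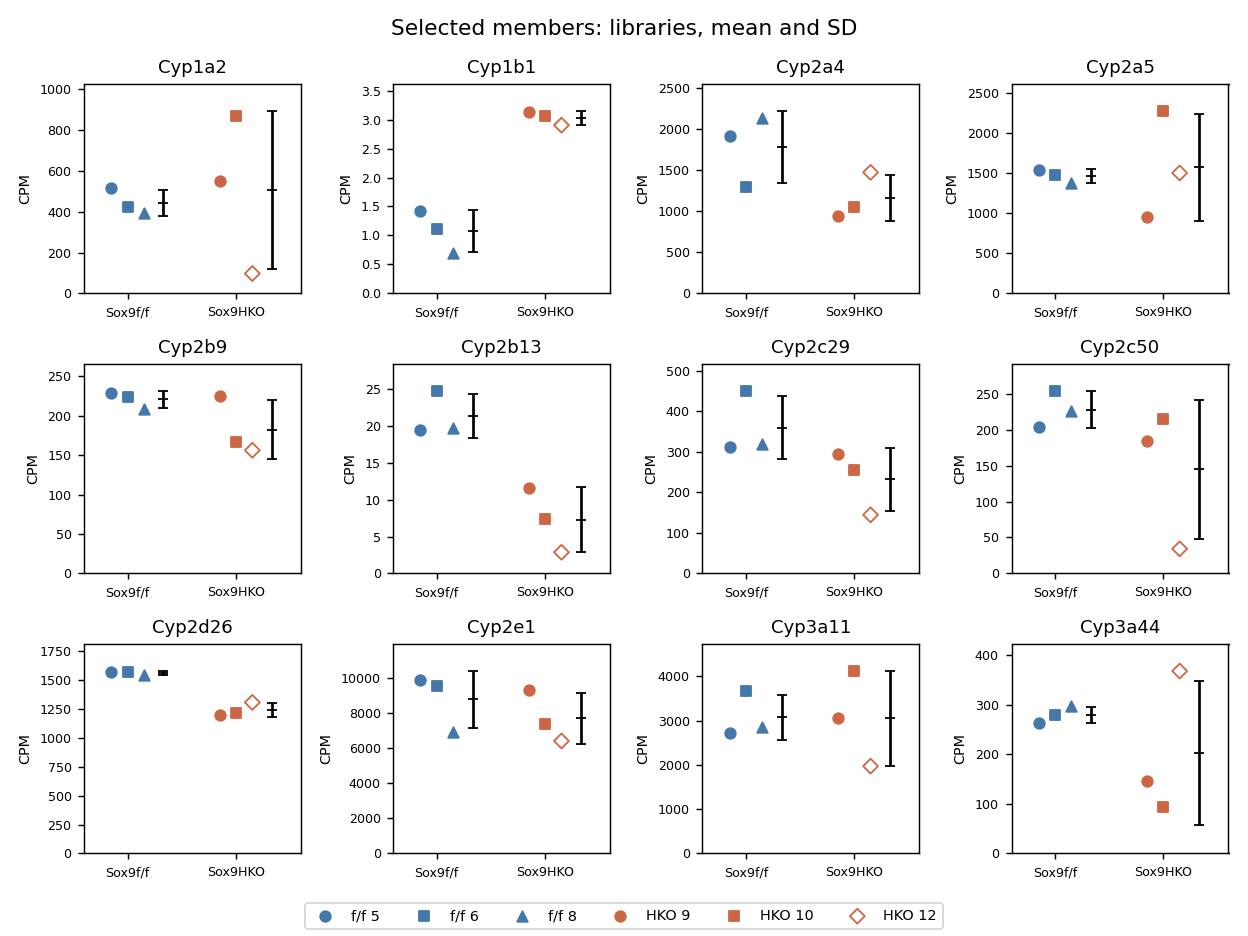
CPM of 12 members in each library (points, replicate 12 as an open diamond), with the mean and SD of each group of 3 as a bar to the right, every axis starting at 0. Cyp1b1, Cyp2b13, Cyp2d26 and, on this scale, Cyp2c29 separate the groups, whereas Cyp1a2, Cyp2c50 and Cyp3a44 depend on where replicate 12 lies.

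Replicate 12 was the lowest of the 6 libraries in 28 of 44 tested members, against 21.8% of all genes tested, and the highest in 5, against 20.6%. It lay below 0.5 times the lowest other library in 10 members (1.43% of all genes): Cyp1a1, Cyp1a2, Cyp2b13, Cyp2c39, Cyp2c50, Cyp2c54, Cyp2c67, Cyp2d12, Cyp2d40 and Cyp3a59. The 10 hold 4 Cyp2c genes and both Cyp1a genes. It lay above 2 times the highest other library in 1 member, Cyp2c69 (0.552% of all genes). The next library by this count, f/f-labelled replicate 8, lay below 0.5 times the lowest other in 2 members (0.976% of all genes), as did HKO-labelled replicate 10 (0.431%). These members were counted after their values were seen.

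Without replicate 12, 43 members were tested and no adjusted p passed in edgeR. The groups then did not overlap in 17 members lower (22.6% of all genes) and 4 higher (20.6%). The 4 were Cyp1a2, Cyp1b1, Cyp2c39 and Cyp2c44. Cyp2a4, Cyp2c69, Cyp2d9 and Cyp3a44 joined the lower ones when replicate 12 was left out. That library lies within or above the f/f-labelled range in each. Cyp2a4 was also lower without overlap when f/f-labelled replicate 6 was left out instead.

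**Figure D4:**
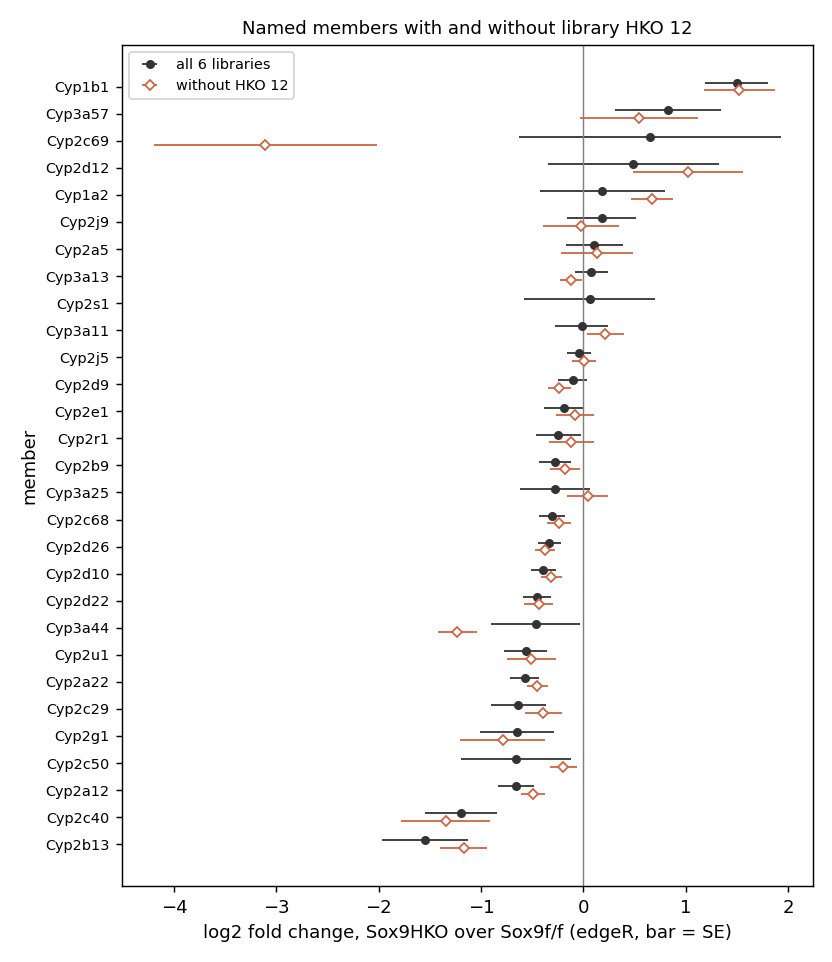
Log2 fold change of 29 members by edgeR, Sox9HKO over Sox9f/f, with its SE, from all 6 libraries (filled) and without replicate 12 (open; Cyp2s1 was then not tested). Cyp1b1, Cyp2a12, Cyp2b13, Cyp2d10 and Cyp2d26 are among those that stay on the same side. Cyp2c69, Cyp2j5, Cyp2j9, Cyp3a11, Cyp3a13 and Cyp3a25 cross 0, and Cyp1a2 and Cyp3a44 move away from it.

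Markers of position within the liver lobule moved with replicate 12. The summed level of 16 pericentral hepatocyte genes outside these families was 5425, 4164 and 3878 CPM against 6321, 5498 and 2724 CPM, lowest in replicate 12, and that of 12 periportal genes was 10492, 9731 and 10520.3 CPM against 8436, 9035 and 13536 CPM, highest there. Summed ductular markers were 98.5, 103 and 79.8 CPM against 154, 199 and 262 CPM. Fewer pericentral hepatocytes and less RNA of these genes per cell cannot be told apart, and the part of either in the values of replicate 12 was not tested.

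Genes that differ between male and female mouse liver were compared next. Every library had the RNA of Y-linked genes, with Ddx3y between 17.0 and 30.3 CPM, and Xist, the RNA of the inactive X chromosome, at 0.115 CPM or less. The summed level of 12 male-biased liver genes outside the families was 3244, 2828 and 2417 CPM against 3180.3, 2438 and 873 CPM. Replicate 12 was far below the other 5 in this sum, most of which came from Mup20 and Serpina3k. All of the 12 except C8a, Hsd3b5 and Susd4 were lowest in replicate 12. Sulfotransferases of female liver were highest in it, with Sult2a1 at 0.548, 0.154 and 0.690 CPM against 0.261, 0.442 and 8.57 CPM and Sult2a2 at 1.46, 0.616 and 1.10 CPM against 0.298, 0.700 and 21.6 CPM. Female-biased members did not follow 1 pattern: Cyp2c69, Cyp3a16 and Cyp3a44 were highest in replicate 12, whereas Cyp2b13 and Cyp2b9 were lowest. Cyp3a41a, which the symbol rule leaves out because its symbol ends in a letter, had 34, 53 and 39 counts against 199, 6 and 549 counts. The list of 13 tested female-biased genes outside the families had no call in edgeR. DESeq2 called 2 of them higher (2.31% of all genes), the peroxisomal genes Acot3 (1.22 ± 0.32) and Abcd2 (0.61 ± 0.12). These 2 and the membrane protein Prom1 at 0.78 ± 0.30 were higher at an unadjusted p under 0.05 in edgeR (9.74% of all genes). Prom1 is also among the ductular markers above. Of 12 male-biased genes, none was called by either tool. The steroid enzyme Hsd3b5, at -1.52 ± 0.59, was the 1 lower at an unadjusted p under 0.05 in edgeR (10.1% of all genes). Its level was near the floor, at 0.502, 0.616 and 1.01 CPM against 0.261, 0.0736 and 0.399 CPM, and DESeq2 gave it no adjusted p.

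Genes that supply P450 enzymes with electrons and heme were compared in the same way. Of 7 electron transfer partners none was called by edgeR or DESeq2, and none had an unadjusted p under 0.05. Por, the reductase, stood at 997, 1039 and 908 CPM against 711, 1043 and 960.0 CPM, overlapping at -0.12 ± 0.16, and cytochrome b5 (Cyb5a) at 431, 448 and 365 CPM against 410.0, 516 and 479 CPM, also overlapping. The 12 genes of heme synthesis and breakdown had no call in edgeR and 1 lower in DESeq2 (1.97% of all genes). At an unadjusted p under 0.05 in edgeR, 3 were lower (10.1% of all genes). In 5 the groups did not overlap, all lower (14.3% of all genes). With library-size scaling 2 were lower (6.97% of all genes) and 2 higher (19.4%) without overlap. The gene DESeq2 called was Alas1, the rate-limiting enzyme of heme synthesis in liver, at 994, 1193 and 1288 CPM against 476, 898 and 592 CPM. Its log2 fold change was -0.82 ± 0.23 (adjusted p 0.154 in edgeR), and replicate 9 was the lowest. Alad, which acts next in the same pathway, was at -0.38 ± 0.14, whereas the heme oxygenase Hmox1 overlapped at 0.25 ± 0.16.

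Of 21 tested xenosensors and regulators of P450 genes, none was called by edgeR and 1, on the higher side, by DESeq2 (2.31% of all genes). By unadjusted p under 0.05 in edgeR, 3 were higher (9.74% of all genes) and none lower (10.1%). The gene DESeq2 called was Ppara, the receptor for fatty acids that drives peroxisomal genes, at 118, 83.5 and 99.0 CPM against 122, 166 and 176 CPM and 0.63 ± 0.18. The others of the 3 were Arnt, the partner of AHR, at 0.33 ± 0.13 and the glucocorticoid receptor Nr3c1 at 0.42 ± 0.18. The sensors of the families described here overlapped: Ahr was at -0.37 ± 0.24, CAR (Nr1i3) at -0.03 ± 0.20 and PXR (Nr1i2) at -0.01 ± 0.18. Of 19 tested targets of these receptors outside the families, none was called by either tool. At an unadjusted p under 0.05 in edgeR, 1 was higher (9.74% of all genes), the sulfate donor synthase Papss2 at 0.41 ± 0.13. The glutathione transferase Gstm3 stood at 465, 609 and 448 CPM against 535, 653 and 111 CPM, and replicate 12 was far the lowest, as in Cyp2c50 and Cyp1a2. Of 14 genes of growth hormone and STAT signalling none was called by either tool. Jak2 at 0.41 ± 0.15 and Socs3 at 0.67 ± 0.27 were the 2 higher at an unadjusted p under 0.05 in edgeR (9.74% of all genes).

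P450 genes of the other families, which mostly make or break down steroids, bile acids and fatty acids, gave a reference for the same comparison. Of 35 such genes 23 were tested, with a median log2 fold change of -0.08, and neither edgeR nor DESeq2 called any. The groups did not overlap in 2 higher (12.2% of all genes) and 2 lower (14.3%). In edgeR 2 had an unadjusted p under 0.05, Cyp26b1, which breaks down retinoic acid, at 0.86 ± 0.31 and Cyp4f13 at -0.44 ± 0.14. Over all genes that p was under 0.05 in 9.74% on the higher and 10.1% on the lower side. The difference in median from families 1 to 3 was not tested.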

How the data were processed

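The table deposited by the authors holds raw counts per gene and FPKM values for 34745 genes, per the file headers. Per the submitters' processing notes, HISAT2 2.0.4, StringTie 1.3.0, mm10 and GRCm38.p4 are named, with no role given. Members and gene lists were chosen with earlier results of these data known. Groups follow the genotype label, 3 libraries each. No label says that libraries are from separate litters or batches, so p-values measure the spread between these libraries. No pair agreed within sampling noise (chi-square per degree of freedom 34.9 or more). The test on counts was the robust quasi-likelihood test of edgeR 4.0.16 (R 4.3.3; filterByExpr, TMM, no covariate, Benjamini-Hochberg over 14137 genes, threshold 0.05, biological coefficient of variation 0.216), checked on simulated data. Signed values are HKO minus f/f. Alternatives were DESeq2 1.42.0, limma 3.58.1 (voom, and log2 FPKM with a pseudocount), other scalings and filters, a length and GC trend, and leaving out each library. The rule for named members took the most abundant of each subfamily (3 in subfamilies of 5 or more tested) and the 6 of smallest p in each direction, and in each list the 2 genes of smallest p. Other genes in the text were chosen after their values were seen. Coding sequences came from GENCODE M21 and promoters from RefSeq (GRCm38.p6). Coordinates are as the table gives them. 1 further gene is not reported here.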

Additional observations from a re-analysis of the deposited data

How the results depend on the processing

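No paired analysis was possible because the groups share no replicate numbers. edgeR called 0 members in every setting, whereas DESeq2 called 1 higher and 4 lower, and in the gene lists 1 of heme synthesis, 1 xenosensor and 2 female-biased genes. Members lower without overlap numbered 13 with TMM (14.3% of all genes) and 6 with library-size scaling (6.97%). Both FPKM scales repeat the latter by construction. Leaving out 1 library gave 12 to 17 lower (16.9% to 22.6% of all genes) and 1 to 4 higher (15.7% to 20.7%). The Cyp2d total moved from a log2 ratio of -0.32 to -0.27 with upper-quartile scaling, -0.21 with library-size scaling and -0.20 in summed FPKM, and the Cyp2j total from -0.03 to 0.076 and 0.073 in the last 2. Of 489 values for 29 named members, 454 kept direction and call, 5 gained a call in DESeq2 and 30 changed sign, in 11 members. Signs turned with library-size, upper-quartile, voom and both FPKM settings for Cyp2j5 (0.064, 0.0044, 0.00091, 0.062 and 0.062) and Cyp3a11 (0.097, 0.036, 0.098, 0.044 and 0.044). Cyp1a2 was -0.19 and -0.18 on the FPKM scales, Cyp2c69 -0.41 on log2(FPKM + 0.1) and -2.86 with voom, Cyp2d9 0.012 with the length and GC trend removed and 0.0043 with library-size scaling, and Cyp3a13 -0.024 with that trend removed and -0.036 with voom. With 1 library left out, log2 fold changes ranged from -0.45 to 0.67 for Cyp1a2, -0.25 to 0.37 for Cyp2a5, -3.11 to 1.24 for Cyp2c69, -0.52 to 1.02 for Cyp2d12, -0.12 to 0.0077 for Cyp2j5, -0.021 to 0.41 for Cyp2j9, -0.37 to 0.27 for Cyp2s1, -0.29 to 0.21 for Cyp3a11, -0.12 to 0.18 for Cyp3a13 and -0.62 to 0.042 for Cyp3a25. The causes were not tested. Counting error is relatively larger in members with few counts, such as Cyp2c69, Cyp2d12 and Cyp2s1; whether depth limited their results was not tested.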
